A study of Homo sapiens with 5 samples.

Results

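Histone H3 acetylated at lysine 9 (H3K9ac) was set against histone H3 crotonylated at the same residue (H3K9cr) in HepG2, an established human hepatocellular carcinoma line, by comparing the peak list of 1 CUT&Tag library for each mark. The members were the peaks of both lists on the 24 standard chromosomes, 31493 for H3K9ac and 3852 for H3K9cr, which is 35345 of the 61337 peaks of the 5 lists of the series. Each peak was classed as shared when it overlapped a peak of the other list by at least 1 bp, and otherwise as H3K9ac-only or H3K9cr-only. The other 3 lists, used only for reference, came from HepG2 libraries labelled H3K9bhb (lysine 9 β-hydroxybutyrylation), wild type ENL and ENL carrying Y78A. The design text describes HepG2 cells with stable expression of Flag-tagged ENL, probed with Flag or H3K9bhb antibodies, and does not state which cells gave the H3K9ac and H3K9cr libraries. No treatment, passage or clone is given for either library. Each mark had 1 library, so no difference given here has a replicate check. Peak names inside the H3K9ac list begin with ENL1_callpeak and those inside the H3K9cr list with CRWT-2_callpeak, and the group was taken from the sample title in each case.

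Acetylation and crotonylation neutralise the charge of the same lysine side chain and compete for it, since a lysine carries only a single acyl group at a time. Both are written by acetyltransferases such as p300 from the matching acyl-CoA and are removed by class I histone deacetylases. Acetyl-lysine is bound by bromodomains, whereas the YEATS domain, which ENL carries, and the double PHD finger also accept the longer crotonyl group. In most tissues both marks are found at the promoters of active genes.

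The list of hepatocyte markers was checked against the label. H3K9ac peaks lay within 1000 bp of an end of 15 of 20 of them, among them APOA1 and APOB (lipoprotein components), HNF4A and FOXA2 (liver transcription factors), and were absent at AFP, ALB, FGB, SERPINA1 and TTR. Of 20 markers of other cell types, PECAM1 (endothelium) and SFTPC (lung) had one, against 56.4% of all protein-coding genes. No H3K9cr peak, found at 4.49% of all protein-coding genes, lay at an end of any of the 40, so the H3K9cr list gave no check of the cell line.

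The promoters of the genes named first in each class show the sequences beneath the peaks. They are the 250 bases before a RefSeq start of the gene on its own strand, on GRCh38.p14. Matches to GGGCGG (the GC box, bound by SP factors) and CCAAT (bound by NF-Y) on either strand are in capitals. In the class with H3K9cr alone CERS3 was the only named gene whose RefSeq promoter overlapped its peak. Its window lies inside the gene, which spans chr15:100400395-100544683, so the start used is not the outermost of the gene. SPATC1L (chr21:46184460-46184709, minus strand) and CFAP43 (chr10:104232365-104232614, minus strand) had both marks, DCDC1 (chr11:31369740-31369989, minus strand) and ZNF658 (chr9:66900475-66900724, plus strand) had H3K9ac and no H3K9cr, and CERS3 (chr15:100544287-100544536, minus strand) had H3K9cr and no H3K9ac.
SPATC1L: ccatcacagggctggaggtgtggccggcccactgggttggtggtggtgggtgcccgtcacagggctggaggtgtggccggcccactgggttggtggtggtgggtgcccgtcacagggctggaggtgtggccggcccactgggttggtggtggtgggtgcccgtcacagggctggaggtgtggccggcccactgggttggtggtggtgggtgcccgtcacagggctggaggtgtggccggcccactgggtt
CFAP43: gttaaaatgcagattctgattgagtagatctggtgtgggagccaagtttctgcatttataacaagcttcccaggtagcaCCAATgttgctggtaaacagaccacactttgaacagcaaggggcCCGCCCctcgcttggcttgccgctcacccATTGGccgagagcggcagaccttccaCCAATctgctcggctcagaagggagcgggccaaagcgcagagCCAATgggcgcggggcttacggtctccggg
DCDC1: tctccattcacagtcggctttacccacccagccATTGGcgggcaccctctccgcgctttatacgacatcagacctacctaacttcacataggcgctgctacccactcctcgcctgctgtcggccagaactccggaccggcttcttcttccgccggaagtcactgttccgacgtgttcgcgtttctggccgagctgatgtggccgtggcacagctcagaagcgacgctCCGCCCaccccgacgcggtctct
ZNF658: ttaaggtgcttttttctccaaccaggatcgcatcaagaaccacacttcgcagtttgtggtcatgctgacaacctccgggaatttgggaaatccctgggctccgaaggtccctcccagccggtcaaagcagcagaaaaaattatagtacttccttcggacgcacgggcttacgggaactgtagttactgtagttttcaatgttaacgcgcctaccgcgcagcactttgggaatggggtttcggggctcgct
CERS3: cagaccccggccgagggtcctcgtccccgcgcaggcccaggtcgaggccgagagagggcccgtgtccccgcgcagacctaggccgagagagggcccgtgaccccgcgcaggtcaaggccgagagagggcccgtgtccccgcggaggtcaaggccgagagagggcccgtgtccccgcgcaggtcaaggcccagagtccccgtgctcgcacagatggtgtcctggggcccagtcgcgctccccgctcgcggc

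The window before CFAP43, a gene for a protein of the sperm flagellum, held 4 CCAAT matches and 1 GC box. The window before SPATC1L, which had the highest H3K9cr fold of the genes with both marks, held neither motif and was a tandem array: shifted by 53 bases, 99.5% of its bases matched themselves. The CERS3 window was also repetitive, with 63.7% of bases matching at a shift of 35, whereas in CFAP43, DCDC1 and ZNF658 the best shift from 10 to 100 bases matched 31.6%, 36.1% and 33.3%.

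H3K9cr peaks were mostly a subset of H3K9ac peaks, and the reverse did not hold. Of the H3K9ac peaks, 2706 (8.59%, 95% Wilson interval 8.29 to 8.91) were overlapped by H3K9cr, against 2707 of the H3K9cr peaks (70.3%, 68.8 to 71.7) overlapped by H3K9ac. There remained 28787 H3K9ac-only and 1145 H3K9cr-only peaks. The H3K9ac peaks covered 19.1 Mb with a median width of 437 bp, and the H3K9cr peaks 1.39 Mb with a median width of 307 bp. The smallest −log10 q was 1.31 for H3K9ac and 1.34 for H3K9cr, so both lists were limited at nearly the same level. The deposited fold and p of each peak gave back a whole number of fragments at the summit, with a median of 33 (9 to 251) for H3K9ac and 22 (10 to 292) for H3K9cr. The overlap also followed list length: with H3K9ac limited to its 3852 peaks of highest −log10 p, 22.04% of H3K9cr peaks were overlapped, and 21.8% of these H3K9ac peaks. All intervals cover counting error over peaks only, and neighbouring peaks are not independent. No source used here gives the reads per library.

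The overlap was not a matter of touching edges. Of the 2737 overlapping pairs, 22 shared less than 50 bp, and in 51.3% (49.4 to 53.1) the H3K9cr peak lay wholly inside the H3K9ac peak. The summits of a pair were a median of 74 bp apart, and 58.4% were within 100 bp. Just inside the 1 bp limit there were 18 H3K9cr peaks with under 50 bp of overlap, with a median of 18 summit fragments. Just outside it there were 8 with a gap under 50 bp and a median of 17 summit fragments. Over all unshared peaks, the median gap to the nearest peak of the other list was 175 kb for H3K9ac-only and 23.3 kb for H3K9cr-only peaks. A peak of the other list lay within 1 kb of 468 H3K9ac-only (1.63%) and 102 H3K9cr-only peaks (8.91%), and within 10 kb of 6.25% and 31.0% of them.

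At the ends of protein-coding genes H3K9cr hardly occurred without H3K9ac. A summit within 1000 bp of either end of 1 of the 20037 RefSeq protein-coding genes was counted as at a gene end. Among H3K9ac peaks there, 713 of 11542 were shared (6.18%, 5.75 to 6.63), and among H3K9cr peaks 715 of 737 (97.0%, 95.5 to 98.0). Elsewhere inside genes the shares were 7.44% of 11484 H3K9ac peaks and 69.8% of 1217 H3K9cr peaks. Outside genes, up to 100 kb from the nearest end, they were 9.02% of 6955 and 70.6% of 901. Outside genes and farther than 100 kb, they were 33.9% of 1512 H3K9ac peaks and 50.8% of 997 H3K9cr peaks. The share thus ran in opposite directions in the lists: it was highest far from genes for H3K9ac and highest at gene ends for H3K9cr. The shared peaks themselves were nearly equal in number, 713 and 715 at gene ends, and 512 and 506 outside genes beyond 100 kb. The contrast therefore restates how many peaks each list had in each place.

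**Figure D1:**
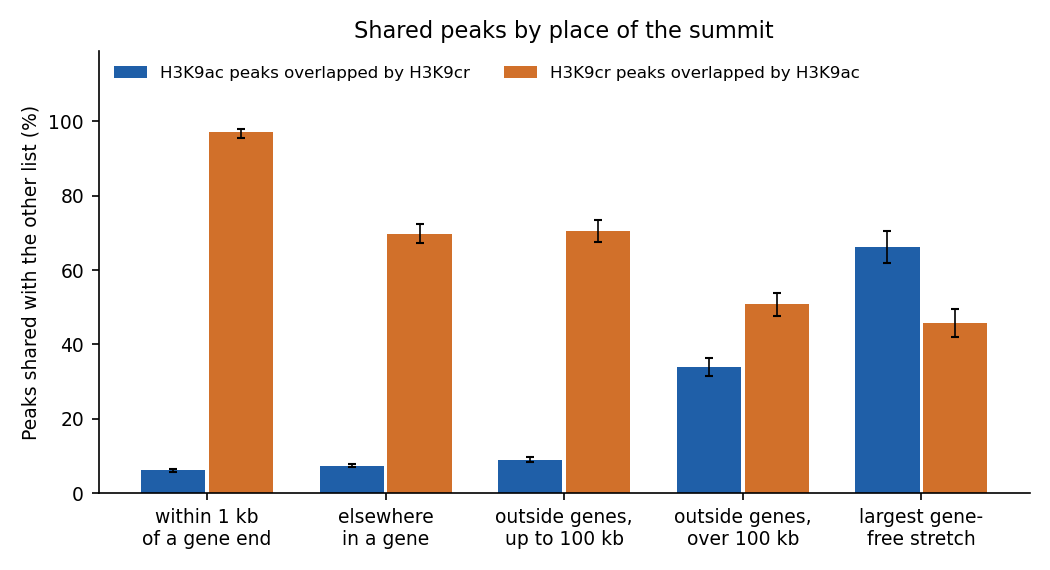
Share of peaks overlapped by the other list (percent, vertical) by place of the summit, with H3K9ac peaks in blue and H3K9cr peaks in orange and 95% Wilson intervals as bars. H3K9cr falls to 45.8% in the gene-free stretches, against 97.0% at gene ends, while H3K9ac is at 66.3% in those stretches and 6.18% at gene ends.

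Read by class, the same places separated the shared peaks from the rest in opposite ways. The shared peaks had nearly the same places in both lists, so the unshared peaks set the direction. Summits at gene ends made up 26.3% of shared and 37.6% of H3K9ac-only H3K9ac peaks, a difference of -11.3 percentage points (Newcombe interval -12.99 to -9.49). They made up 26.4% of shared and 1.92% (22 of 1145) of H3K9cr-only H3K9cr peaks, a difference of 24.5 points (22.6 to 26.3). Summits more than 100 kb from a gene end, counted inside or outside genes, were 21.8% of shared and 5.70% of H3K9ac-only H3K9ac peaks. For H3K9cr they were 21.5% of shared and 47.5% of H3K9cr-only peaks, a difference of -26.0 points (-29.2 to -22.7). With the H3K9ac list limited to the length of the H3K9cr list the gene-end differences were -31.4 points for H3K9ac and 36.6 points for H3K9cr, and the H3K9cr difference beyond 100 kb was -11.2 points.

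Much of the far class of H3K9cr lay in the longest stretch without a protein-coding gene on each chromosome. The stretches were 201 Mb in all, a division chosen after the values were seen. They held 657 H3K9cr and 460 H3K9ac peaks, against 1127 and 2232 peaks with summits beyond 100 kb. These stretches held 305 (11.3%) of shared and 155 (0.538%) of H3K9ac-only H3K9ac peaks. They held 301 (11.1%) of shared and 356 (31.1%) of H3K9cr-only H3K9cr peaks. On chromosome 1 the stretch held 59 shared and 15 H3K9ac-only H3K9ac peaks, and 57 shared and 60 H3K9cr-only H3K9cr peaks. On chromosomes 5, 10 and 19 it held 50, 50 and 40 shared H3K9ac peaks and 44, 40 and 41 H3K9cr-only peaks, while on chromosomes 2, 4 and X it held no peak of either list. The stretches were set by gene positions alone and may differ in kind, and the sequence in them was not examined. No source used here names a mapping filter, and whether reads of repeated sequence were placed uniquely was not tested. Without these stretches and without the first 20 kb of each chromosome, 7.70% of H3K9ac and 75.2% of H3K9cr peaks were shared, and the H3K9cr difference beyond 100 kb was -12.0 points.

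The geometry of a shared site also changed with its place. At gene ends, the H3K9ac peak of a pair had a median width of 1273 bp and the H3K9cr peak 318.5 bp, and in 88.9% of 720 pairs (86.4 to 91.0) the H3K9cr peak lay wholly inside the H3K9ac peak. The median summit held 57 fragments for H3K9ac and 21 for H3K9cr there. In the gene-free stretches, the median widths were 276 bp for H3K9ac and 337 bp for H3K9cr, and the median summits held 23 and 32 fragments. There the H3K9cr peak lay inside the H3K9ac peak in 7.82% of 307 pairs, and the H3K9ac peak lay inside the H3K9cr peak in 56.0%. Summits of a pair were a median of 120.5 bp apart at gene ends and 24 bp apart in the gene-free stretches.

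Shared peaks were wider than unshared peaks in both lists. The median width was 570.5 bp for shared and 426 bp for H3K9ac-only H3K9ac peaks, a difference of 144.5 bp (121 to 171). It was 329 bp for shared and 261 bp for H3K9cr-only H3K9cr peaks, a difference of 68 bp (60.2 to 76.1). With the H3K9ac list limited to the length of the H3K9cr list, the H3K9ac difference turned to -72 bp (-138 to -26.1). The authors' folds, which can be read only within a list, went opposite ways: the median was 4.16 for shared and 3.38 for H3K9ac-only H3K9ac peaks, and 3.98 for shared and 4.30 for H3K9cr-only H3K9cr peaks. The H3K9cr-only summits held fewer fragments all the same, a median of 18 against 24 in shared H3K9cr peaks, over a median background of 2.83 against 5.06 fragments.

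Ranking gave the same contrast. From the lowest to the highest of 4 equal groups by −log10 p, 3.10%, 5.17%, 8.95% and 17.1% of H3K9ac peaks were shared. For H3K9cr these shares were 64.9%, 68.7%, 67.8% and 79.6%, of which the first 3 have overlapping intervals. Ranked by fold, the H3K9cr shares fell along the groups, at 78.5%, 73.0%, 67.2% and 62.4%, and the top fold group had 63.7% of its summits beyond 100 kb from a gene end, against 11.1% in the lowest. Ranked by width, they were 49.5%, 66.5%, 79.1% and 86.0%. A wide H3K9cr peak was more often on H3K9ac than a narrow one, and a H3K9cr peak of high fold less often than one of low fold.

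**Figure D2:**
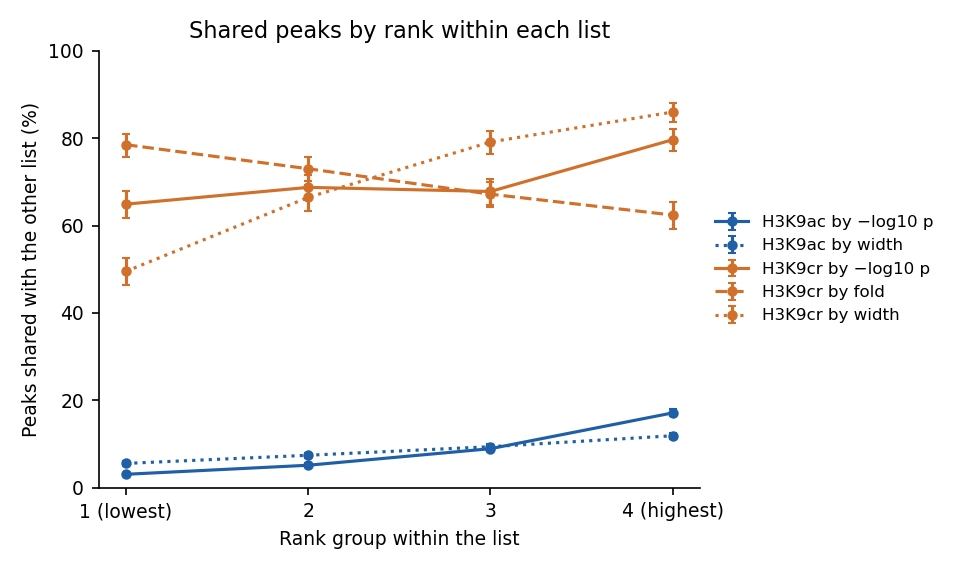
Share of peaks overlapped by the other list (percent, vertical) in 4 equal rank groups of each list (horizontal, lowest to highest), with H3K9ac in blue, H3K9cr in orange and 95% Wilson intervals. The solid lines rank by −log10 p, the dotted lines by width and the dashed line by fold, along which H3K9cr goes down through 78.5%, 73.0%, 67.2% and 62.4%.

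The strongest shared site was the same in both lists. It lay at chr3:93470310-93470865 for H3K9ac, with 251 summit fragments and a fold of 27.1, and at chr3:93470271-93470864 for H3K9cr, with 292 fragments and a fold of 24.96. It stands in the gene-free stretch of chromosome 3, with its summit 402 kb from an end of PROS1, the nearest protein-coding gene. The strongest shared site inside a gene lay in SERINC2, a member of the serine incorporator family, 2.7 kb from its end. There the H3K9ac peak chr1:31431687-31432220 held 181 summit fragments and the H3K9cr peak chr1:31431658-31432229 held 183. The other leading H3K9cr peaks were on chromosome Y (159 fragments) and chromosome X (160 fragments, 17.6 kb from IL9R). Whether these are separate sites or reads of the same sequence placed on both chromosomes was not tested. Peaks of H3K9bhb and of both ENL lists overlapped each of these leading shared sites as well. At the chromosome 3 and SERINC2 sites the summits of both marks thus held similar numbers of fragments.

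Ranked by −log10 p, as the shared sites were, the leading sites of 1 list alone were weaker. The first H3K9ac-only peak, chr4:49634142-49634517, held 88 summit fragments (the most at any H3K9ac-only summit were 111), and the next, chr11:70371269-70371597 inside PPFIA1 (a liprin scaffold), held 52. The next ranks were at gene ends, 463 bp inside TCAIM (73 fragments) and 151 bp inside TMEM184C (65 fragments). The first H3K9cr-only peak, chr7:59995634-59996138, held 35 fragments and lay in the gene-free stretch of chromosome 7. Another, chr4:166580055-166580612, held 34 fragments and lay 153 kb from SPOCK3. Neither of these H3K9cr-only sites had its summit within 1000 bp of a protein-coding gene end. Peaks of H3K9bhb and of both ENL lists overlapped the first 4 H3K9cr-only peaks and 3 of the first 4 H3K9ac-only peaks, all but the one at TMEM184C. The widest peaks were chr2:91656888-91660136 for H3K9ac (3249 bp, shared) and chr7:56371098-56373029 for H3K9cr (1932 bp, overlapped by 2 H3K9ac peaks). Next for H3K9ac came PHLDA1 and TSC22D2, both H3K9ac-only, at 2857 and 2772 bp.

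Where both marks met at a gene start, the H3K9cr summit lay farther upstream. RefSeq starts were available for 15843 of the 20037 genes and for none on chromosome 8. H3K9ac summits within 1000 bp of a start had a median position of -16 bp (upstream negative) in 671 shared peaks and 80 bp in 10094 H3K9ac-only peaks, and 673 shared H3K9cr summits had one of -119 bp. Downstream summits made up 47.8% of shared H3K9ac, 64.9% of H3K9ac-only and 29.3% of shared H3K9cr summits. In the 677 overlapping pairs with the H3K9cr summit within 1000 bp of a start, the H3K9ac peak spanned the start in 91.1% and reached a median of 578 bp upstream and 686 bp downstream of it. Within these pairs, the H3K9cr summit was upstream of the H3K9ac summit in 419 (61.9%, 58.2 to 65.5) and downstream in 256 (37.8%).

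**Figure D3:**
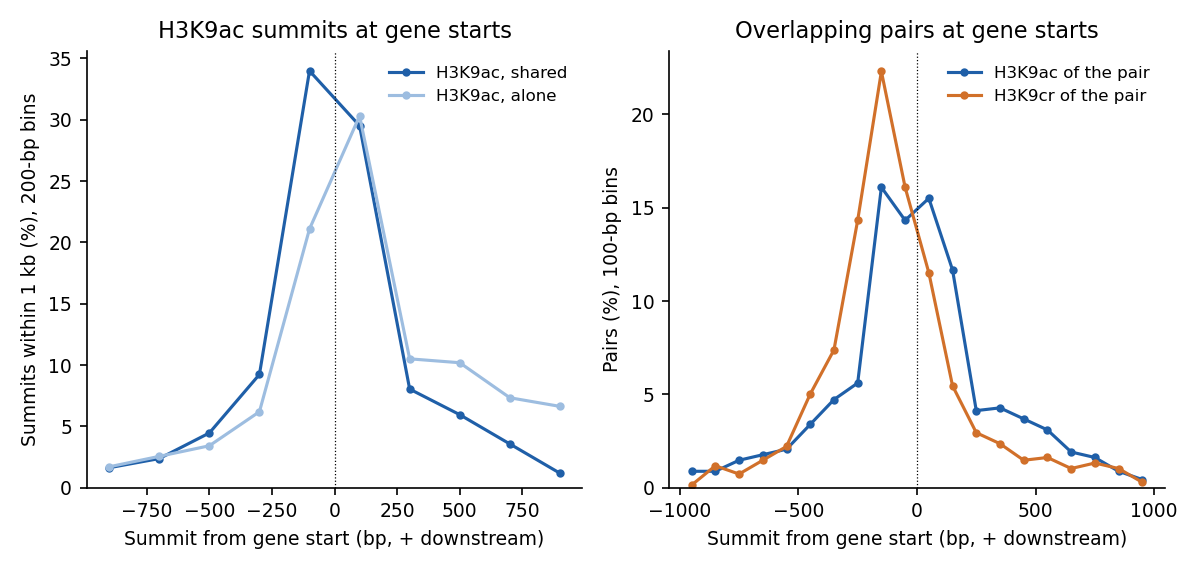
Position of summits around RefSeq gene starts (bp, horizontal, positive downstream) as a percentage of those within 1 kb (vertical), for shared and H3K9ac-only H3K9ac peaks on the left and for the H3K9ac and H3K9cr summits of 677 overlapping pairs on the right. H3K9ac-only summits centre downstream of the start (median 80 bp), and H3K9cr summits of the pairs centre upstream (median -122 bp, against -23 bp for H3K9ac).

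Of all protein-coding genes, 11305 had an H3K9ac peak within 1000 bp of an end (56.4%) and 899 an H3K9cr peak (4.49%). Both marks were present at 880 genes (4.39% of genes), H3K9ac without H3K9cr at 10425, H3K9cr without H3K9ac at 19 (0.0948%) and neither at 8713. H3K9cr was thus found at 7.78% of genes with H3K9ac, and H3K9ac at 97.9% of genes with H3K9cr. Here any part of a peak within the window counts. In 870 of the 880 genes an H3K9ac and an H3K9cr peak at the gene's ends overlapped each other. BUB1, a spindle checkpoint kinase, was among the 10 where they did not, with the H3K9ac peak at its start and the H3K9cr peak at its other end. Of the H3K9cr peaks at gene ends, 152 of 761 (19.97%) served more than 1 gene. With the shorter H3K9ac list, 503 genes had both marks and 396 had H3K9cr alone. With a window of 2500 bp, 34 genes had H3K9cr alone.

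Of the 2 ends of a gene, both marks stood more often at the start. Most peaks of both lists lay elsewhere: 36.6% of H3K9ac and 19.1% of H3K9cr summits were within 1000 bp of a protein-coding gene end. Among genes with a RefSeq promoter, H3K9ac lay at the 5′ end of 57.2% and the 3′ end of 6.19%, and H3K9cr at the 5′ end of 4.51% and the 3′ end of 0.309%. Where the 3′ end was more than 2000 bp from any other gene end, in 11680 genes, the 3′ shares were 2.71% for H3K9ac and 0.214% for H3K9cr. H3K9cr was more frequent at genes with stronger H3K9ac. In 4 equal groups of H3K9ac genes by the −log10 p of the peak, from lowest to highest, it was present at 2.16%, 4.60%, 8.60% and 15.8%. By the width of that peak the shares were 2.72%, 5.34%, 8.53% and 14.5%. By the authors' H3K9ac fold they levelled off, at 4.17%, 7.43%, 10.2% and 9.34%.

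The genes with both marks and the highest H3K9cr fold were mostly at starts that carry wide H3K9ac peaks. SPATC1L had an H3K9ac peak of 606 bp with 57 summit fragments and a fold of 6.62, and an H3K9cr peak of 346 bp with 44 fragments and a fold of 8.58. CFAP43 had 61 fragments over 1281 bp for H3K9ac and 31 fragments over 359 bp for H3K9cr, with folds of 6.73 and 6.60. At the adjacent ends of BRWD1 (a bromodomain protein) and PSMG1 (a proteasome assembly chaperone) a single peak per mark served both genes. It held 72 fragments over 1756 bp for H3K9ac and 28 over 392 bp for H3K9cr. The BRWD1 end concerned is the one at chr21:39184176, and the gene reaches from there to 39321212. In each of these the H3K9cr peak was the narrower.

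Other genes with both marks were of the same form. SETD9, a SET domain gene, had 60 H3K9ac and 25 H3K9cr summit fragments, and EDEM3, a mannosidase of endoplasmic reticulum quality control, had 49 and 18. ICE1, of the little elongation complex, had 48 H3K9ac and 26 H3K9cr fragments. The order was turned at MCPH1 (microcephalin), where the peaks stood beyond the 3′ end with 18 H3K9ac and 47 H3K9cr fragments. FAM86B1 had 84 H3K9ac and 64 H3K9cr fragments, and it belongs to a family of near-identical copies, so its assignment is uncertain.

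The genes with H3K9ac and no H3K9cr were led by gene starts with H3K9ac peaks of 708 to 999 bp, within the 606 to 1756 bp range of the 10 genes with both marks and the highest H3K9cr fold. The shared start of DCDC1 (a doublecortin domain gene) and DNAJC24 (diphthamide synthesis) had 44 H3K9ac fragments, a width of 708 bp and a fold of 12.1. The zinc finger genes ZNF658 and ZNF300 had folds of 9.95 and 9.88 with 38 and 36 fragments. CSTF2, a factor of mRNA 3′ end cleavage, had a fold of 9.76, the shared start of KCTD16 and YIPF5 had 9.58, and FPGT, of fucose salvage, had 9.38.

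Few genes had H3K9cr without H3K9ac. FCMR, a receptor for IgM, led with 31 H3K9cr summit fragments, a fold of 7.42 and peaks of H3K9bhb and both ENL lists at the same gene. ZDHHC11 (a palmitoyltransferase family gene) had 23 fragments and a fold of 5.29, and CERS3, a ceramide synthase, had 15 and 5.22. UBE2QL1, SLC35G3 and TRIM72 had 12 to 18 fragments and folds of 4.05 to 4.24. With a window of 2500 bp, UBE2QL1 and TRIM72 had H3K9ac as well. TSPY4 and USP17L28 are members of multicopy families, so their values of 16 and 25 fragments are uncertain. The exact 95% Poisson limits on 15 fragments are 8.40 and 24.7, and the fewest fragments at any H3K9cr summit were 10.

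By gene list, H3K9ac was common and H3K9cr sparse, and the counts are to be read against 56.4% and 4.49% of all genes. Among enzymes and carriers that supply or remove crotonyl-CoA and related acyl groups, such as ACSS2, ACOX3, ACADS and CDYL, 18 of 23 had H3K9ac and 0 had H3K9cr, which allows a share of up to 13.04%. In fatty acid oxidation 33 of 38 had H3K9ac and 3 had H3K9cr. These were HADHA and HADHB, the subunits of the mitochondrial trifunctional protein, whose shared start had 87 H3K9ac and 26 H3K9cr fragments, and ACADSB, an acyl-CoA dehydrogenase, with 70 and 23. Of the histone acyltransferases and their subunits, 28 of 28 had H3K9ac and 3 had H3K9cr, namely MSL2 (63 H3K9ac and 21 H3K9cr fragments), BRPF1 (51 and 21) and KAT6A (53 and 15, in peaks that do not overlap, though another H3K9ac peak at KAT6A overlaps the H3K9cr peak).

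Of the deacylases, 23 of 25 had H3K9ac and 3 had H3K9cr. SIRT5, a mitochondrial desuccinylase, had 67 H3K9ac and 19 H3K9cr fragments, HDAC6 had 39 and 16, and HDAC4 had 44 and 22. Of the acyl-lysine readers, 33 of 40 had H3K9ac and 4 had H3K9cr. These were BRWD1 (at the peak it shares with PSMG1), KAT6A, PHIP (47 H3K9ac and 11 H3K9cr fragments) and TRIM24. The H3K9cr peak of PHIP is lost at a −log10 q of at least 2. In the genes of the oxidation, acyltransferase, deacylase and reader lists given here with values, the H3K9cr summit held 11 to 28 fragments.

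Housekeeping lists were nearly full for H3K9ac. Of cytosolic ribosomal protein genes 77 of 80 had H3K9ac and 2 had H3K9cr, RPL7 (61 and 16 fragments) and RPS15A (82 and 23). Proteasome subunits had 32 and 2 of 33, PSMC4 and PSMD14, and cell cycle genes 41 and 4 of 42. The 4 were BUB1, CDC25A, CDK2 (at a peak beyond its 3′ end) and PCNA. Immediate early genes had 23 and 2 of 29, JUN (66 H3K9ac and 21 H3K9cr fragments) and KLF6 (73 and 32).

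The liver lists had H3K9ac and no H3K9cr. Of genes for secreted liver proteins 31 of 46 had H3K9ac and 0 had H3K9cr, which allows up to 6.52%, and of liver transcription factors 26 of 35 and 0, which allows up to 8.57%. Replication-dependent histone genes had 39 and 0 of 51, with up to 5.88% allowed, and genes of other tissues 5 and 0 of 40, with up to 7.50% allowed. Each of these limits lies above the 4.49% of all genes, so a lower share than that of other genes could not be detected in lists of this size.

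Peaks of the other 3 lists gathered on the shared sites. H3K9bhb overlapped 76.2% of shared and 19.0% of H3K9ac-only H3K9ac peaks, a difference of 57.1 points (55.4 to 58.8). It overlapped 75.4% of shared and 23.3% of H3K9cr-only H3K9cr peaks, a difference of 52.0 points (49.0 to 54.9). For wild type ENL the shares were 72.7% and 24.4% of shared and H3K9ac-only H3K9ac peaks, and 72.1% and 20.4% of shared and H3K9cr-only H3K9cr peaks. For ENL Y78A they were 57.8% and 10.7%, and 57.1% and 12.8%. None of the 3 lists overlapped 17.4% of shared and 70.9% of H3K9ac-only H3K9ac peaks, and 18.0% of shared and 65.8% of H3K9cr-only H3K9cr peaks.

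Peak strength and place moved with this overlap. In the H3K9ac group of lowest −log10 p, H3K9bhb overlapped 42.2% of shared and 6.12% of H3K9ac-only peaks, and in the highest 92.1% and 44.3%. At gene ends it overlapped 93.1% of shared and 28.8% of H3K9ac-only H3K9ac peaks. In the gene-free stretches it overlapped 82.0% of shared and 39.4% of H3K9ac-only H3K9ac peaks, and 82.4% of shared and 27.8% of H3K9cr-only H3K9cr peaks.

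Genes were compared in the same way. H3K9bhb had a peak at an end of 93.8% of the 880 genes with both marks and 37.2% of the 10425 with H3K9ac alone, a difference of 56.6 points (54.6 to 58.3). Wild type ENL was at 93.6% and 46.0% of them, and ENL Y78A at 76.6% and 21.3%, a difference of 55.3 points (52.3 to 58.1) against 47.2 points (45.2 to 49.0) between the H3K9ac peak classes. Of the 19 genes with H3K9cr alone, 3 had H3K9bhb and 15 had none of the 3 lists. Among genes with neither mark, H3K9bhb was at 0.723% and wild type ENL at 1.26%.

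**Figure D4:**
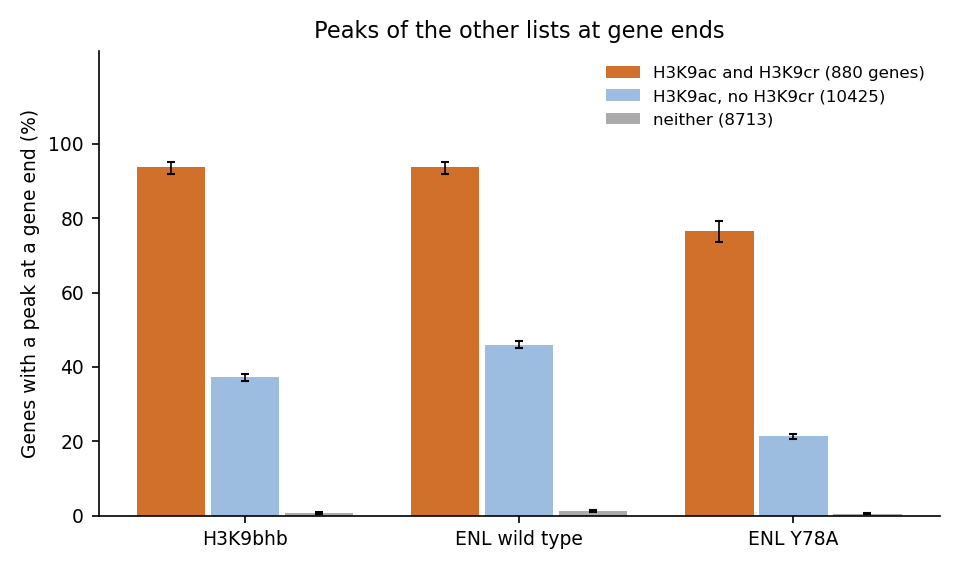
Genes with a peak of H3K9bhb, wild type ENL or ENL Y78A at a gene end (percent, vertical, with 95% Wilson intervals), for 880 genes with H3K9ac and H3K9cr, 10425 with H3K9ac and no H3K9cr, and 8713 with neither. H3K9bhb is at 93.8%, 37.2% and 0.723% of these genes.

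The promoter windows of the classes had nearly the same base composition and differed in motif content. Windows of 250 bases before and 50 after the start were used, 22078 in all, of which 695 overlapped both marks and 10139 overlapped H3K9ac and no H3K9cr. Their median GC content was 66.0% with both marks and 65.7% with H3K9ac alone, with a median of 27 CpG in each, against 56.7% and 9 in windows with neither mark. CCAAT occurred on either strand in 48.8% of windows with both marks and 35.5% with H3K9ac alone, a difference of 13.2 points (9.42 to 17.1), and in 34.7% of all windows. GGGCGG occurred in 82.7% and 72.5%, a difference of 10.3 points (7.14 to 13.02), and in 56.3% of all windows. TATAAA occurred in 2.73% and 4.41% and in 9.50% of all windows.

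The other 5 motifs were sought on both strands as well, each counted on its own, and matches of different motifs may share bases. Their differences between windows with both marks and windows with H3K9ac alone had intervals that include 0. CCGGAA (the ETS core) occurred in 30.1% and 33.3%, TGACGTCA (the cyclic AMP response element) in 3.60% and 3.14%, and the palindromic NRF1 motif in 3.17% and 2.42%. CACGTG (the E-box) occurred in 9.50% and 10.03%, and TGAGTCA (AP-1) in 2.16% and 2.70%. In all windows these 5 occurred in 21.1%, 2.25%, 1.48%, 8.32% and 4.02%.

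**Figure D5:**
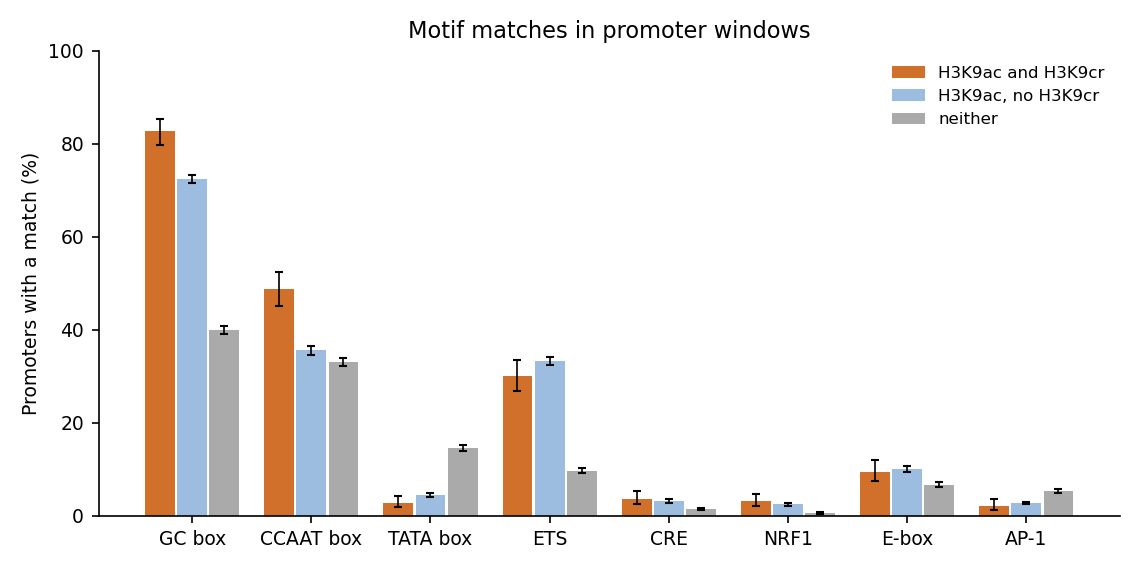
Promoter windows with at least 1 match on either strand (percent, vertical, with 95% Wilson intervals) for 8 motifs, in windows with H3K9ac and H3K9cr, with H3K9ac and no H3K9cr, and with neither. The CCAAT box is at 48.8%, 35.5% and 33.1% of these windows and the GC box at 82.7%, 72.5% and 40.0%.

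The CCAAT difference had the same direction in each group of H3K9ac strength. In 4 equal groups of windows by the −log10 p of the H3K9ac peak, lowest to highest, CCAAT was in 54.5%, 55.5%, 55.7% and 42.5% of windows with both marks and 34.8%, 36.8%, 34.0% and 36.7% with H3K9ac alone. Among windows with H3K9bhb it was in 49.2% of those with both marks and 42.7% of those with H3K9ac alone, a difference of 6.51 points (2.41 to 10.6). Among windows with wild type ENL the shares were 49.6% and 42.7%, and among windows without it 22.7% (5 of 22) and 29.8%, the opposite order at a low count. Windows with both marks held 0.885 CCAAT matches each and those with H3K9ac alone 0.557. Matches with a first base from -120 up to -40 made up 43.4% and 46.7% of them. The GGGCGG difference was 5.54 points among windows with H3K9bhb and 6.22 points among those with wild type ENL. It was -7.83 points without H3K9bhb (16 of 26 windows with both marks) and -9.56 points without wild type ENL (13 of 22), both with intervals that include 0. By H3K9ac strength it was 17.8, 7.28, 18.0 and 7.96 points from lowest to highest, and the interval of the second group includes 0. These motif groupings were added after the first motif counts were seen, and a match describes letters in the window, not binding.

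Along the chromosomes, the share of H3K9ac peaks overlapped by H3K9cr was lowest on X (3.18%) and highest on Y (29.4%), with 13.9% on chromosome 21 next. The share of H3K9cr peaks overlapped by H3K9ac stayed between 60.0% on chromosome 15 and 81.5% on chromosome 17. H3K9ac peaks also stood closer together, with a median gap of 7.25 kb to the nearest other peak of the list on either side, against 72.1 kb for H3K9cr.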

How the data were processed

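CUT&Tag libraries of HepG2 cells on concanavalin A beads were made with a primary and a secondary antibody and a protein A/G transposase, per the labels' protocols. Reads were handled with Bowtie2, FastQC, deepTools and MACS2 on hg38, with no version named, per the submitters' processing notes. A control library, duplicate handling, mapping filters and reads per library are not given in the sources used for this comparison. The authors deposited 1 narrowPeak list per library: the deposited intervals and summits are in bp, the deposited fold is a ratio of summit signal to background, p and q were deposited on a −log10 scale, and a deposited score follows from q. A transposase favours open chromatin, which an overlap of peaks cannot tell apart from a mark.

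Peaks on 24 chromosomes were used, 31493 of 33213 lines for H3K9ac and 3852 of 4148 for H3K9cr. Summit fragments were recovered from fold and p (100% of peaks in both lists, relative tolerance 3e-05). The most frequent recovered background was 2.21 fragments for H3K9ac and 2.07 for H3K9cr, a value that may depend on call settings. Folds were used within a list only. Shares have 95% Wilson intervals, their differences Newcombe intervals, median differences intervals from order statistics, and fragment counts exact Poisson intervals. With 1 library per mark no p-value was computed. A count of 0 was read as allowing 3. Genes, promoters and symbols came from RefSeq on GRCh38.p14, and all 497 genes of the 13 lists matched by symbol. A gene had a mark when a peak reached within 1000 bp of either end. Genes were named by class: the 10 highest H3K9cr folds with both marks, the 8 highest folds with either mark alone, and up to 3 list members with both marks, and promoters were those of the first 2 named genes of each class with a RefSeq window under the peak. BUB1 and KAT6A were singled out for their peak positions, and PCNA and TRIM24 to complete counts, after values were seen. Some items that the rule names are not reported here. Members, lists and tests were chosen with earlier results of these data known. Overlap rule, q limit, list length, merging, window width and contigs were varied. Python 3.11.15, numpy 2.4.6, pandas 2.3.3, scipy 1.17.1, matplotlib 3.10.9 and bedtools 2.31.1 were used. Overlap counting and fragment recovery were tested on simulated data.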

Additional observations from a re-analysis of the deposited data

Results flagged for a closer look

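Contigs outside the standard chromosomes were not used in the comparisons and held peaks of both lists, 1720 for H3K9ac (5.18% of its lines) and 296 for H3K9cr (7.14%). On these contigs 13.3% (11.7 to 14.9) of H3K9ac peaks and 77.4% (72.3 to 81.8) of H3K9cr peaks were overlapped by the other list. No control library was available to set them against.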

How the results depend on the processing

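No paired analysis was possible because each mark had 1 library. Results were compared with the main 95% interval, or for gene counts with a change of 1.5 times. Of the 82 alternative values of the 14 main results, 50 stayed within these limits, 31 moved without a change of sign, and 1 changed sign. Only differences can change sign, so a moved share or gene count was not checked for direction. With the H3K9ac list limited to 3852 peaks, the shared percentages were 21.8 for H3K9ac and 22.04 for H3K9cr, and genes numbered 503 with both marks, 2886 with H3K9ac alone and 396 with H3K9cr alone. There the differences between shared and unshared peaks were -31.4 points (H3K9ac) and 36.6 points (H3K9cr) at gene ends, -11.2 points beyond 100 kb (H3K9cr), 40.8 and 43.7 points for H3K9bhb, 38.2 and 47.4 points for wild type ENL, and 55 bp in H3K9cr width, while the H3K9ac width difference changed sign to -72 bp. An overlap of at least 50% of either peak gave 68.2% of H3K9cr peaks. A summit inside the other peak gave 6.92% of H3K9ac and 66.7% of H3K9cr peaks, -16.0 points at gene ends for H3K9ac, and widths differing by 90 bp (H3K9ac) and 59.5 bp (H3K9cr). Merging peaks within 1000 bp gave 10.1% of H3K9ac peaks, and 54.0 points for H3K9bhb and 44.9 points for wild type ENL in that list. A window of 2500 bp gave -17.4 points for H3K9ac and 34 genes with H3K9cr alone. Without the gene-free stretches and chromosome starts, added after seeing the data, values were 7.70% of H3K9ac and 75.2% of H3K9cr peaks, -8.11 points (H3K9ac) and 26.9 points (H3K9cr) at gene ends, -12.0 points beyond 100 kb, and 204 bp (H3K9ac) and 58 bp (H3K9cr) in width. Limiting the list removes its weaker peaks by construction, and the cause of the other changes was not tested. Of 29 named genes with both marks, PHIP left its class at a −log10 q of at least 2. Of 8 named with H3K9cr alone, UBE2QL1 and TRIM72 left it at 2500 bp. Depth is unknown beyond the summit fragments, and H3K9cr summits of 10 to 20 fragments limit what an absent peak can show.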
